A study of Mus musculus with 661 samples.

Results

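*Csf1*, *Il34*, *Il7*, *Il15*, *Ptn*, *Mdk*, *Thpo*, *Flt3l*, *Csf3* and *Csf2* encode secreted factors that act on blood cells and their progenitors. These 10 genes were chosen by name from the 45771 nuclear genes of the count table, and each of them had an entry there. The products of *Csf1* and *Il34* share the receptor CSF1R and maintain monocytes, macrophages and osteoclasts. The products of *Il7* and *Il15* act on lymphocytes and natural killer cells through receptors that contain the common γ chain, and *Ptn* (pleiotrophin) and *Mdk* (midkine) encode related heparin-binding growth factors. *Thpo* encodes thrombopoietin, *Flt3l* the ligand of FLT3, *Csf3* the granulocyte factor G-CSF and *Csf2* the granulocyte-macrophage factor GM-CSF.

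The study sorted single stromal and endothelial cells from the endosteum and the central marrow of young and old C57BL/6 wild-type mice, about 2 and 24 months old. Full-length cDNA of each sorted cell was sequenced without molecular identifiers, and the authors counted reads per gene. The table held 661 cells, 336 young and 325 old. Every gate was Ter119- and CD45-. The endosteal mesenchymal gates were MSC-S (CD31-, Sca-1+, CD51+), mOPr (CD31-, Sca-1-, CD51+, PDGFRα+, LepR-) and OPr (CD31-, Sca-1-, CD51+, PDGFRα-, LepR-). MSC-L were marrow cells that were CD31-, Sca-1-, CD51+, PDGFRα+ and LepR+. Endothelial cells were AEC (endosteal, CD31+, Sca-1 high, CD105 low) and SEC (marrow, CD31+, Sca-1 low, CD105 high). Young and old cells numbered 53 and 58 for MSC-L, 59 and 59 for MSC-S, 44 and 29 for OPr, 26 and 26 for mOPr, 84 and 82 for AEC, and 70 and 71 for SEC.

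Levels of *Csf1* and the other 9 genes are given in CPM of nuclear gene counts, summed over the cells of a group. Nuclear gene counts per cell ran from 57517 to 1488549, with a median of 416359. Group medians for young cells were 463538 in MSC-L, 602470 in MSC-S, 686077 in OPr, 516984 in mOPr, 409992 in AEC and 314844 in SEC. Those for old cells were 352562, 693396, 775426, 444242, 414261 and 302201 in the same order. A cell carried a gene at 10 CPM or more. A gene rose or fell when summed levels differed 2-fold or more and both groups together had 100 counts or more from 5 cells or more. The labels name no mouse, so cells could not be assigned to mice, each population at each age was treated as 1 sample without replicates, and no test was made. The 95% intervals and the floors of 3 counts cover counting error only, and the counts are PCR reads without molecular identifiers. Library numbers fell into 3 ranges of 170, 303 and 188 cells. SEC lay wholly in range 3, AEC were spread over all 3 ranges, and the mesenchymal populations lay in ranges 1 and 2.

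Some marker genes followed the gates and others did not. *Lepr* stood at 3160.4 CPM in young and 3239 in old MSC-L, *Stab2* at 7177 and 5875 in SEC, and *Ly6a*, which encodes Sca-1, at 912 and 1304 in MSC-S and 1494 and 1736 in AEC. The 5 OPr markers summed to 8670 CPM in young and 3439 in old MSC-L, led by *Ibsp*, against 2431 and 1545 CPM in OPr, so their sum did not set OPr apart. *Bglap* and *Alpl* of the same list were higher in young OPr (143 and 876 CPM) than in young MSC-L (2.37 and 152 CPM). The others, *Ibsp*, *Runx2* and *Sp7*, were lower in young OPr (1161, 202 and 49.1 CPM) than in young MSC-L (8012, 439 and 65.2 CPM). *Bglap* was highest in young mOPr, at 666 CPM. The 5 MSC-S markers summed to 1982 CPM in young MSC-S and 2388 in young AEC, and to at most 274 CPM in the other mesenchymal gates.

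*Lepr* was also present in the LepR- gates of old cells, at 1047 CPM in mOPr and 1333 in OPr, against 144 and 362 in the young ones. In old OPr, 10 of 29 cells carried at least 7 of 15 hematopoietic markers, although the gate was CD45-. The 15 markers summed to 11865 CPM in old OPr, to 44.2 CPM without those 10 cells, and to 8.90 CPM in young OPr. In old OPr 15 of 15 reached 10 CPM, led by *S100a9* at 4041 CPM, and in young OPr 0 of 15 did. One old SEC also passed this limit. Among endothelial cells, 8 young and 5 old SEC and 2 AEC of each age carried at least 7 of 10 mesenchymal markers. The 10 mesenchymal markers summed to 633 CPM in young SEC with those cells and 147 CPM without them. The 10 endothelial markers reached at most 76.008 CPM in any mesenchymal group. The numbers of members past 2-fold in OPr and between SEC and AEC are therefore given with and without these cells.

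Of the 10 genes, 8 had most of their counts in mesenchymal cells, *Csf3* was an AEC gene and *Csf2* was not read at all. The gene with the most counts was *Csf1*, with 97619 counts in 454 cells, then *Il34* with 28998 in 227 cells. *Mdk* had 17349 counts in 190 cells, *Il7* 10897 in 157, *Il15* 8064 in 203, *Ptn* 6103 in 90, *Csf3* 4233 in 25, *Flt3l* 2469 in 164 and *Thpo* 229 in 28. MSC-L held 63.5% of *Il7* counts, 60.1% of *Il34* counts, 59.4% of *Mdk* counts and 41.5% of *Csf1* counts. Among the 6 populations, MSC-L thus held the largest share of the counts of these 4 genes. MSC-L held 30.6% of the *Il15* counts and 28.7% of the *Flt3l* counts, so most counts of both lay in the remaining populations together. Such shares also depend on how many cells of each gate were sequenced and how deeply.

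**Figure D1:**
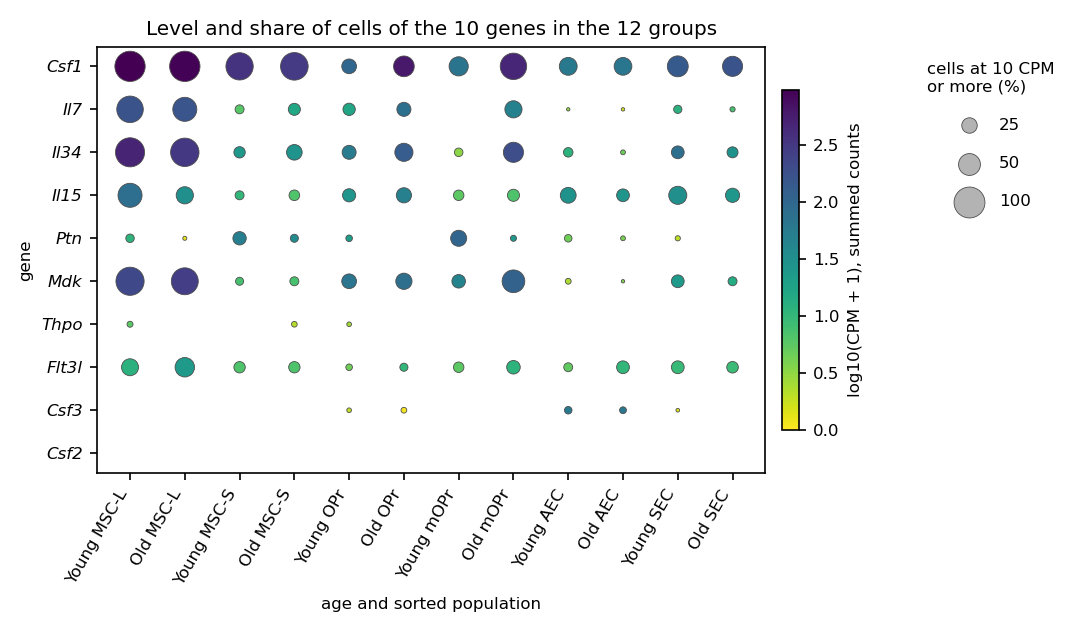
Summed level (colour, log10 of CPM plus 1) and percent of cells at 10 CPM or more (dot size) for the 10 genes in young and old cells of the 6 populations. Groups in which no cell reached 10 CPM have no dot.

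*Csf1* was present in all 12 groups and was highest in MSC-L. In young MSC-L, *Csf1* stood at 969 CPM (956 to 982), with 7.43, 929 and 4012 CPM in the lowest, median and highest cell. In old MSC-L it stood at 943 CPM (929 to 957), with 5.30, 777.5 and 3807 CPM. *Csf1* was carried by 51 of 53 young (96.2%) and 56 of 58 old (96.6%) MSC-L, so nearly every cell of that gate expressed it. MSC-S were lower, at 350.4 CPM in young and 289.6 CPM in old cells. Single MSC-S ran from 0 to 2554 CPM with a median of 142 in young, and from 0 to 2428 with a median of 175 in old cells. The intervals of the summed MSC-L and MSC-S levels did not overlap, whereas the ranges of single cells did. SEC held 142 CPM of *Csf1* in young and 166 in old cells, and AEC 58.9 and 64.6. Without mesenchymal-marker cells young SEC held 84.5 CPM and old SEC 111.5 CPM. Hematopoietic markers were not used to leave out cells here, although 1 old SEC passed that limit. A single cell held 25.2% of all *Csf1* counts of old SEC. *Csf1* was carried by 32 of 70 young SEC and 28 of 84 young AEC, so in endothelium it was the property of a minority of cells.

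The 2 remaining mesenchymal gates differed most between ages for *Csf1*. Young OPr held 99.1 CPM and old OPr 617 CPM. Single young OPr had a median of 0, and 67.7% of their *Csf1* counts came from 1 cell. Single old OPr ran from 0 to 2522 CPM with a median of 5.33, and 13 of 29 carried the gene against 10 of 44 young cells. Young mOPr held 67.5 CPM (lowest, median and highest cell 0, 2.07 and 1047) and old mOPr 459 CPM (0, 269 and 2015.3). *Csf1* was carried by 10 of 26 young and 19 of 26 old mOPr. Cells of both ages overlapped in both gates, and the old cells were more often at the high end.

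*Il34* followed *Csf1* in having its highest level in MSC-L, but it was confined to fewer cells elsewhere. Young MSC-L held 490.2 CPM (481 to 499; cells 0, 370 and 2835) and old MSC-L 319.9 CPM (312 to 328; cells 0, 239 and 1005). *Il34* was carried by 47 of 53 young (88.7%) and 49 of 58 old (84.5%) MSC-L. In MSC-S it stood at 24.8 CPM in young and 27.004 in old cells, carried by 8 of 59 and 15 of 59. Young mOPr nearly lacked *Il34*, at 2.26 CPM (1.56 to 3.18) with 33.04 CPM in the highest cell. Old mOPr held 190.3 CPM (183 to 198), with cells at 0, 2.32 and 1333 CPM, and 11 of 26 cells carried it against 2 of 26 young ones. OPr held 53.9 CPM in young and 132 CPM in old cells. Among endothelial cells, *Il34* was higher in SEC (80.5 CPM young, 28.7 old) than in AEC (10.7 and 3.70) when all cells and ranges were pooled. In range 3 young AEC held 24.3 CPM, and young SEC without mesenchymal-marker cells 27.3 CPM.

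Of the 10 genes, *Il7* had the largest share of its counts in MSC-L. Young MSC-L held 167 CPM of *Il7* (161 to 172; cells 0, 105 and 1015) and old MSC-L 159.9 CPM (154 to 166; cells 0, 43.3 and 1679). It was carried by 39 of 53 young (73.6%) and 35 of 58 old (60.3%) MSC-L. Old OPr followed with 78.2 CPM and old mOPr with 47.5 CPM, where 6 of 29 and 8 of 26 cells carried *Il7*. Young mOPr had a single *Il7* count, and 0 of 26 cells carried it (3 of 26 would be 11.5%). In MSC-S *Il7* stood at 5.12 CPM in young cells, with 52.5% of counts in 1 cell, and at 15.1 CPM in old cells. Endothelial *Il7* came largely from single cells. One cell gave 71.7% of the 10.9 CPM of young SEC and 83.9% of the 6.61 CPM of old SEC.

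*Il15* had no single main population. It was highest in young MSC-L, at 81.9 CPM (78.2 to 85.7; cells 0, 22.8 and 611), where 32 of 53 cells (60.4%) carried it. Old MSC-L held 30.7 CPM (28.3 to 33.3; cells 0, 0 and 216) with 18 of 58 carriers (31.03%). Young and old cells overlapped, with the old median at 0. Endothelial *Il15*, pooled over ranges, stood at 28.8 and 25.98 CPM in young and old AEC, 30.96 and 24.7 CPM in young and old SEC. Young AEC varied by range, at 14.6, 29.6 and 48.7 CPM, and old AEC stood at 28.7 CPM in range 3, the range of the SEC. MSC-S and mOPr were low, between 4.73 CPM in young mOPr and 9.49 CPM in young MSC-S. In old OPr 1 cell, with 15 of 15 hematopoietic markers, held 73.8% of the 48.8 CPM, and without the hematopoietic-marker cells the level was 11.4 CPM.

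*Mdk* and *Ptn*, the heparin-binding pair, had their highest levels in different mesenchymal gates. *Mdk* was an MSC-L gene, at 215 CPM in young cells (209 to 221; cells 0, 186 and 906) and 277 CPM in old cells (269 to 284; cells 0, 206 and 752). It was carried by 44 of 53 young (83.02%) and 44 of 58 old (75.9%) MSC-L. OPr held 65.5 CPM of *Mdk* in young and 80.3 in old cells, and mOPr 43.7 and 110.5 CPM. MSC-S had 6.54 and 6.33 CPM and AEC 1.32 and 2.67 CPM, so *Mdk* was low in both of these endosteal gates. Reads of *Mdk* may also be assigned to its pseudogene *Mdk-ps1*, which held 7.32% of the summed counts of both genes.

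*Ptn* was highest in young mOPr and MSC-S and low in MSC-L. Young mOPr held 103 CPM (98.2 to 109; cells 0, 0 and 1104), carried by 7 of 26 cells (26.9%), with 42.8% of counts in 1 cell. Old mOPr held 24.4 CPM (21.7 to 27.3), and 98.4% of those counts came from the only carrier among 26 cells, at 639 CPM. In MSC-S *Ptn* stood at 52.1 CPM in young cells (11 of 59 carriers) and 35.5 CPM in old cells (4 of 59 carriers, 69.9% of counts in 1 cell). Young MSC-L held 10.4 CPM, of which 1 cell gave 74.2%, and old MSC-L 0.308 CPM. *Ptn* was thus carried by few cells at high level rather than by a population as a whole.

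The last 4 genes had low levels or few carriers. *Flt3l* was read at low level in every group, from 3.61 CPM in young OPr to 23.3 CPM in old MSC-L. It was carried by 16 of 53 young (30.2%) and 23 of 58 old (39.7%) MSC-L. *Thpo* reached 4.82 CPM in young MSC-L, where 1 cell gave 75.5% of 110 counts, and was not read in old MSC-L (upper limit 0.189 CPM) or in mOPr of either age. *Csf3* was read almost wholly in AEC, which held 99.0% of its counts. It stood at 58.6 CPM in young AEC (5 of 84 carriers, 5.95%; cells 0, 0 and 1517) and 61.7 CPM in old AEC (4 of 82 carriers, 4.88%; cells 0, 0 and 3853). One old AEC held 1706 counts, 40.3% of all *Csf3* counts of the table. *Csf2* had 0 counts in 661 cells, with upper limits between 0.0942 CPM in old MSC-S and 0.2955 CPM in old mOPr.

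**Figure D2:**
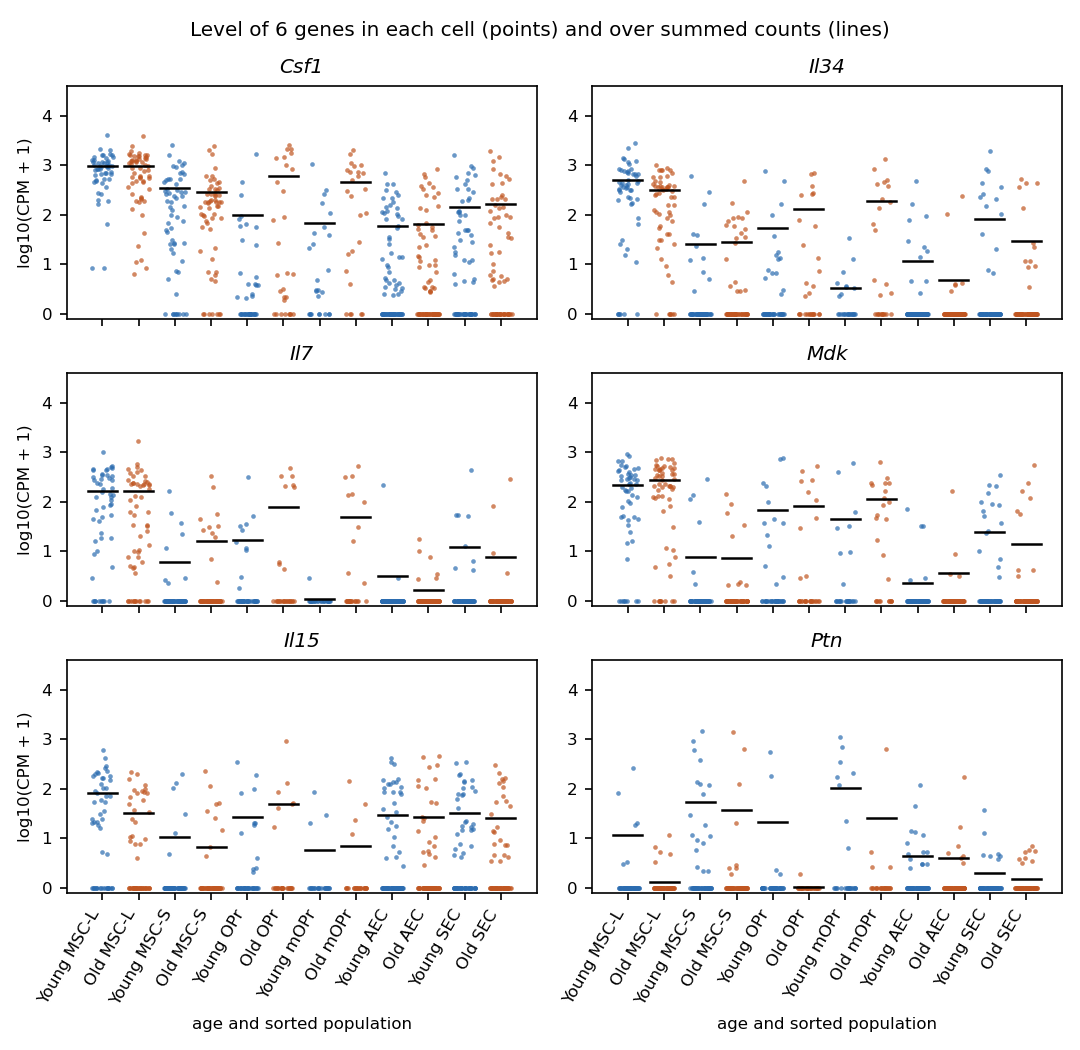
Level of *Csf1*, *Il34*, *Il7*, *Mdk*, *Il15* and *Ptn* in each cell (log10 of CPM plus 1), young cells blue and old cells orange. Horizontal lines mark the summed level of a group.

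Transcript length changes the order of the genes within a group. Per kilobase of exon, young MSC-L held *Il34* at 250.2 CPM per kb, *Csf1* at 183 and *Mdk* at 163, followed by *Il15* at 36.2 and *Il7* at 29.4. In old MSC-L the order was *Mdk* 209, *Csf1* 179, *Il34* 163, *Il7* 28.2 and *Il15* 13.6 CPM per kb. *Il34*, *Csf1* and *Mdk* thus formed the upper group in MSC-L at both ages. *Csf1* led in MSC-S, at 66.4 CPM per kb in young and 54.8 in old cells, with *Ptn* (15.2) second in young and *Il34* (13.8) second in old cells. In young mOPr *Mdk* (33.04) and *Ptn* (30.1 CPM per kb) led with overlapping intervals, but single cells held 58.3% of the *Mdk* and 42.8% of the *Ptn* counts. In old mOPr *Il34* (97.1), *Csf1* (86.9) and *Mdk* (83.5 CPM per kb) led. *Csf3* led in AEC, at 41.4 CPM per kb in young and 43.6 in old cells, although 5 and 4 cells carried it. In SEC *Il34* led in young cells (41.1 CPM per kb) and *Csf1* in old cells (31.5). Without mesenchymal-marker cells *Csf1* (16.01) stood above *Il34* (13.9 CPM per kb) in young SEC too.

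MSC-L and MSC-S of young mice separated most of the 10 genes. Of 7 testable genes, 5 were higher in MSC-L (*Csf1*, *Il7*, *Il34*, *Il15*, *Mdk*), 1 was lower (*Ptn*) and *Flt3l* stayed within 2-fold. Among 13645 genes tested in the same way, 30.6% were higher and 18.1% lower in MSC-L. The median log2 ratio was 3.11 for the 7 genes and 0.34 for all tested genes. *Flt3l* stood at log2 0.92, and at 1.48 without the highest cells. *Csf3* and *Csf2* had too few counts, and the *Thpo* counts, 110 in MSC-L and 3 in MSC-S, came from 4 cells.

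The largest MSC-L over MSC-S ratios belonged to *Mdk* (32.9-fold, log2 5.04, 4.85 to 5.24) and *Il7* (32.5-fold, log2 5.02, 4.81 to 5.25). For *Il7* the log2 ratio was 3.98 in range 1 and 6.97 in range 2, and 5.98 without the highest cell of each group. *Mdk* gave 5.75 and 4.68 in the same ranges. *Il34* was 19.8-fold higher (log2 4.30, 4.204 to 4.41; 5.02 and 4.05 within ranges; 5.32 without the highest cells). *Il15* was 8.62-fold higher (log2 3.11, 2.94 to 3.28; 4.12 and 2.39 within ranges; 3.89 without the highest cells). *Csf1*, which both populations expressed, was 2.77-fold higher (log2 1.47, 1.44 to 1.499; 1.03 and 1.72 within ranges). *Ptn* was the exception, lower in MSC-L with a log2 ratio of -2.33 (-2.53 to -2.14). Within ranges *Ptn* gave -5.99 and -1.58, and without the highest cells -3.76. The 6 directions were thus the same in both ranges, and the sizes of the differences varied between ranges.

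SEC and AEC were compared in range 3 alone, since SEC were found in no other range. Of 6 testable genes, 4 were higher in young SEC (*Csf1*, *Il7*, *Il34*, *Mdk*) and 0 lower, against 26.2% and 18.2% of 11908 genes. Without the cells that carried mesenchymal markers, 5 genes were testable and only *Mdk* was higher, against 24.8% higher and 19.5% lower of 11484 genes. The 8 young SEC with mesenchymal markers held 1245 of 1765 *Il34* counts and 1513 of 3122 *Csf1* counts.

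*Csf1* stood at 51.3 CPM in young AEC of range 3. Its log2 ratio of SEC over AEC was 1.47 (1.31 to 1.64) with all cells and 0.72 without the marker cells, which left SEC at 84.5 CPM. *Il34* went from 1.73 (1.49 to 1.98) to 0.17, with 27.3 CPM left in SEC against 24.3 CPM in AEC. Of the *Il34* counts of these AEC, 94.3% lay in 1 cell. Without the highest cell of each group, and with the marker cells kept, the *Il34* ratio was 5.27. *Mdk* stayed higher in SEC, with log2 4.43 (3.38 to 5.75) against 2.88 without the marker cells and 5.22 without the highest cells. *Il7* had 0 counts in these AEC and was at least 23.6-fold higher in SEC (log2 4.56 as a lower bound, 2.70 without the highest cell, also a lower bound). Of the *Il7* counts left in SEC without marker cells, 92.5% came from 1 cell. *Il15* (log2 -0.65) and *Flt3l* (0.36) stayed within 2-fold. The part of the marker cells in the *Csf1* and *Il34* differences was not tested.

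Age left *Csf1*, *Il7* and *Mdk* of MSC-L within 2-fold, whereas *Il15* fell. Of 7 testable genes, 1 was higher in old MSC-L (*Flt3l*) and 2 lower (*Il15*, *Ptn*), against 15.4% higher and 12.8% lower of 13143 genes. The median log2 ratio was -0.06 for the 7 genes and 0.02 for all tested genes. The 15 hematopoietic markers summed to 37.6 CPM in young and 293 CPM in old MSC-L, led there by *Plek* at 137 CPM. Single old MSC-L carried up to 6 of these markers, under the limit of 7. The part of this difference in the ratios was not tested. *Csf1* had a log2 ratio of old over young of -0.04, *Il7* -0.06 and *Mdk* 0.36. *Il34* was lower in old cells but within 2-fold, at -0.62 (-0.66 to -0.57; -0.79 and -0.53 within ranges). *Il15* fell 2.66-fold (log2 -1.41, -1.55 to -1.28), with -1.98 in range 1 and -0.91 in range 2. *Ptn* fell with log2 -5.07 (-6.53 to -3.93), from 10.4 CPM that lay mostly in 1 cell; without the highest cells the ratio was -3.72. Within ranges *Ptn* gave -1.16 and -6.04. *Flt3l* rose 2.09-fold (log2 1.06, 0.84 to 1.29), but the ratio was -0.087 in range 1, 1.78 in range 2 and 0.81 without the highest cells. Of the 3 genes past 2-fold, *Il15* was thus the one with the same direction in both ranges and many carriers.

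In MSC-S, of 7 testable genes 1 was higher in old cells (*Il7*) and 0 lower, against 10.4% higher and 13.3% lower of 13381 genes. *Il7* had a log2 ratio of 1.56 (1.32 to 1.81) and 1.76 without the highest cells, but -6.92 in range 1 and 4.06 in range 2. At 5.12 and 15.1 CPM, in 5 and 9 of 59 cells, it had no common direction over ranges. *Csf1*, the main gene of MSC-S, had a ratio of -0.27 and *Il34* 0.12. *Ptn* stood at -0.55, and at -1.78 once the highest young and old cells were left out. *Il15* stood at -0.74, with 1.00 in range 1 and -2.04 in range 2.

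OPr and mOPr were the populations in which the largest numbers of these genes differed between ages. In old OPr 4 of 7 testable genes were higher (*Csf1*, *Il7*, *Il34*, *Flt3l*) and 1 lower (*Ptn*), against 27.2% higher and 21.1% lower of 13418 genes. Without the 10 cells with hematopoietic markers, the same 4 were higher and 2 lower (*Il15*, *Ptn*), against 27.9% and 19.5% of 12949 genes. In old mOPr 5 of 7 were higher (*Csf1*, *Il7*, *Il34*, *Mdk*, *Flt3l*) and 1 lower (*Ptn*), against 25.8% and 20.7% of 11237 genes. Median log2 ratios were 1.29 for the 7 genes and 0.15 for all tested genes in OPr, and 1.34 and 0.12 in mOPr. With size factors the all-gene medians became -0.02 and -0.01, and the numbers of higher and lower genes among the 7 were unchanged.

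*Csf1* rose 6.23-fold in old OPr (log2 2.64, 2.58 to 2.70) and 6.80-fold in old mOPr (log2 2.77, 2.67 to 2.87). In OPr the ratio was 1.74 and 5.01 within ranges, 3.96 without the highest cells and 3.02 without hematopoietic-marker cells. In mOPr it was 4.28 and 2.08 within ranges. The rise of *Csf1* was thus present in each gate and each range. It was absent when OPr-like clusters replaced the OPr gate, with a log2 ratio of 0.04 for *Csf1*. The same clusters gave -0.65 for *Il34* and -4.54 for *Il7*. Both were guide genes from which the authors built the clusters, so these values are description only. *Il7* had 3 counts in old OPr-like cells. *Il34* rose 84.1-fold in old mOPr (log2 6.39, 5.90 to 6.94; 5.72 and 7.37 within ranges). In OPr *Il34* rose with log2 1.29 (1.2006 to 1.38; 1.08 and 3.68 within ranges; 1.72 without hematopoietic-marker cells). *Il7* rose in OPr with log2 2.29 (2.14 to 2.44; 1.28 and 4.57 within ranges; 3.50 without the highest cells; 2.71 without hematopoietic-marker cells). In mOPr *Il7* went from 1 count to 47.5 CPM, a log2 ratio of 9.44 (6.95 to 14.74), with 9.02 in range 1. That 1 count lies under the floor of 3 counts, so the size of both ratios is uncertain. In range 2, and without the highest cells, young mOPr had 0 *Il7* counts, and the ratios were at least 6.28 and 7.25.

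*Mdk* rose in old mOPr (log2 1.34, 1.201 to 1.48; 0.67 and 1.46 within ranges; 2.11 without the highest cells) and stayed within 2-fold in OPr (0.29; 0.72 without hematopoietic-marker cells). The number of *Mdk* carriers in mOPr was 5 of 26 young and 14 of 26 old cells. *Flt3l* rose in OPr (log2 1.37, 1.03 to 1.73; 0.76 and 2.62 within ranges; 2.72 without the highest cells; 1.79 without hematopoietic-marker cells) and in mOPr (1.18, 0.74 to 1.63; 1.47 and 1.02 within ranges; 2.00 without the highest cells). Its levels stayed low, at most 10.4 CPM, and carriers were few: 2 of 44 young and 2 of 29 old OPr, and 3 of 26 young and 5 of 26 old mOPr. In young OPr 1 cell held 78.3% of *Flt3l* counts. *Il15* of OPr stood at 0.91 (0.77 to 1.05) with all cells, 0.07 without the highest cells and -1.19 without hematopoietic-marker cells. In mOPr *Il15* stood at 0.31, with 1.23 and -2.02 within ranges. The *Il15* difference in OPr therefore depended on which cells were counted.

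*Ptn* fell in both gates. In old OPr 1 count remained, against 20.5 CPM in young OPr from 2 carriers among 44 cells (log2 -8.78, -14.08 to -6.29). The ratio was -7.10 in range 1 and -8.35 without hematopoietic-marker cells. These sizes are uncertain, since the 1 count lies under the floor of 3 counts. In range 2, and without the highest cells, old OPr had 0 *Ptn* counts, and 3 counts in their place gave the bounds -6.68 and -5.59. In mOPr the log2 ratio of *Ptn* was -2.09 (-2.27 to -1.91), with 0.18 in range 1, -7.83 in range 2 and -7.21 without the highest cells. A single old mOPr of range 1 thus set the pooled *Ptn* level of that group.

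**Figure D3:**
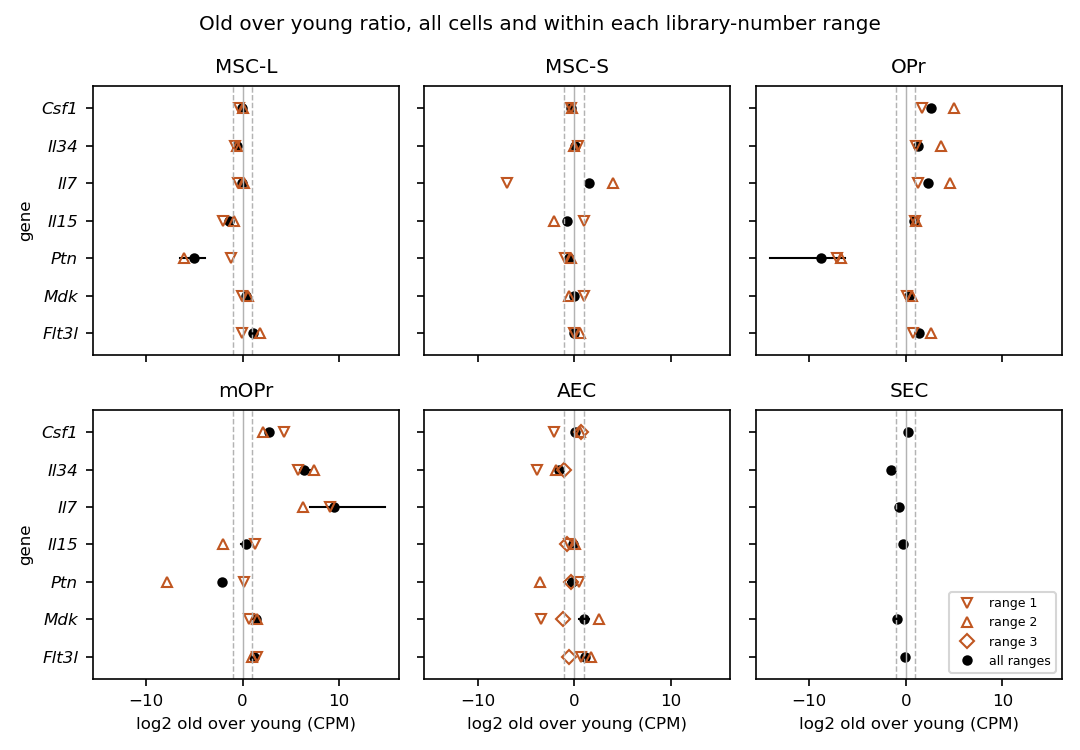
Log2 ratio of old over young for 7 genes in the 6 populations, with all cells (black, 95% counting interval) and within each library-number range (orange), a group with 0 counts being given 3. Dashed lines mark 2-fold.

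Old OPr and mOPr contained more cells whose cluster was of the MSC-L type. These MSC-L-like cells (clusters M1 and M2 of the authors) made up 3 of 44 young (6.82%, 1.43 to 18.7) and 10 of 29 old OPr (34.5%, 17.9 to 54.3). In mOPr they made up 2 of 26 young (7.69%) and 14 of 26 old cells (53.8%, 33.4 to 73.4). *Il7*, *Il34* and *Mdk* were among the guide genes of the authors' clustering, so their levels by cluster are description only. *Csf1* was not a guide gene.

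Split by this identity, *Csf1* of OPr was high in MSC-L-like cells of both ages and low in the others. It stood at 807 CPM in 3 young and 1318 CPM in 10 old MSC-L-like OPr. The other OPr without hematopoietic markers held 17.2 CPM in young (41 cells) and 15.9 CPM in old (9 cells). The 10 cells with hematopoietic markers held 77.9 CPM, with 99.1% of it in 1 cell. In mOPr *Csf1* stood at 615 CPM in 2 young and 766 CPM in 14 old MSC-L-like cells, and at 39.2 CPM in 24 young and 117 CPM in 12 old other cells. Among the other OPr *Csf1* was thus equally low at both ages, while among the other mOPr it was higher in old cells. Those other mOPr were 16 MSC-S-like and 8 OPr-like cells in young mice and 12 OPr-like cells in old mice. The other young OPr were 36 OPr-like and 5 MSC-S-like cells, while old OPr held 0 MSC-S-like cells. The ages are thus not compared within a like class in either gate.

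*Il34* and *Il7* had the same split in old cells. *Il34* stood at 397 and 292 CPM in young and old MSC-L-like OPr and at 14.2 and 0.956 CPM in the other OPr. In mOPr *Il34* was low in young cells of either kind (4.18 and 2.16 CPM), and stood at 293 CPM in old MSC-L-like cells and 76.3 CPM in the others, where 79.2% came from 1 cell. *Il7* stood at 125 and 174 CPM in young and old MSC-L-like OPr, at 3.39 CPM in the other young OPr and at 0 in the other old OPr (upper limit 0.588 CPM). In old mOPr it stood at 90.1 CPM in MSC-L-like and 0.169 CPM in other cells. *Mdk* of old OPr was likewise divided, with 178.5 CPM in MSC-L-like and 0.319 CPM in other cells, while other young OPr held 42.2 CPM. *Ptn* was the reverse, since its young mOPr counts lay outside the MSC-L-like cells, at 108.7 CPM. The part of this composition in the age differences of *Il34* and *Il7* was not tested.

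**Figure D4:**
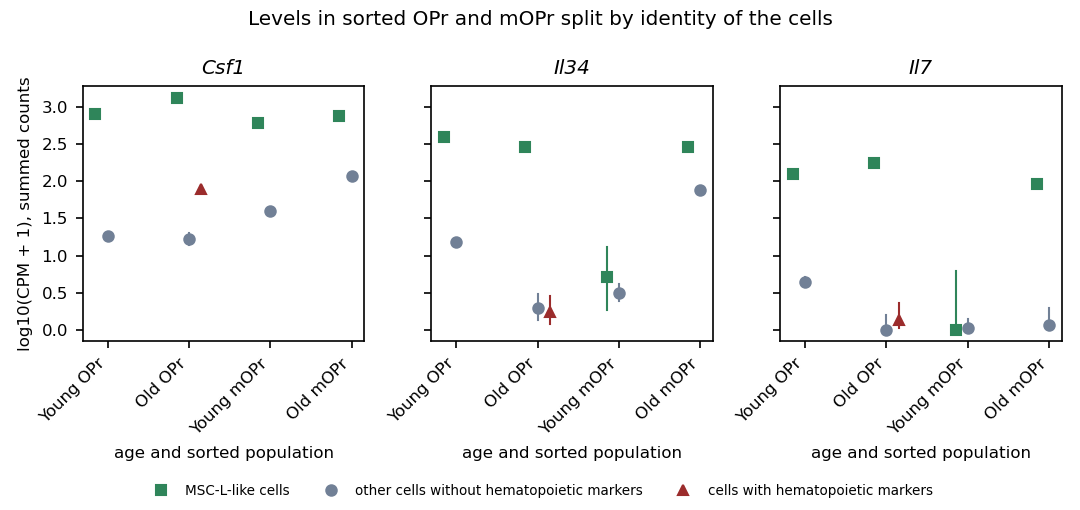
Levels of *Csf1*, *Il34* and *Il7* in OPr and mOPr of each age, split into MSC-L-like cells (squares), other cells without hematopoietic markers (circles) and cells with hematopoietic markers (triangles). Bars are 95% counting intervals.

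Among mesenchymal cells of the same cluster type taken over all gates, *Csf1* stayed within 2-fold between ages. MSC-L-like cells held 968 CPM in young and 1025 in old cells, OPr-like cells (M3 to M5) 76.1 and 78.4, and MSC-S-like cells (M6 to M16) 241 and 294. SEC-like cells held 68.1 CPM of *Csf1* in young and 44.5 in old cells, the opposite direction to the SEC gate. *Il7* stood at 162 and 153 CPM and *Mdk* at 214 and 237 CPM in young and old MSC-L-like cells. *Il34* stood at 456 and 309 CPM in the same cells. OPr-like cells held 47.9 CPM of *Mdk* in young and 7.64 in old cells. Old OPr-like cells included the 10 cells with hematopoietic markers. Cells of M3 were mostly young, so the OPr-like clusters were mixed differently at each age.

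*Il34* fell with age in both endothelial populations. In AEC, of 7 testable genes 2 were higher in old cells (*Mdk*, *Flt3l*) and 1 lower (*Il34*), against 11.1% higher and 13.9% lower of 14042 genes. In SEC 0 of 6 testable genes were higher and 1 lower (*Il34*), against 14.6% higher and 8.8% lower of 12982 genes. *Il34* fell 2.90-fold in AEC (log2 -1.54, -1.84 to -1.24; -3.80, -1.90 and -1.01 within ranges; -2.12 without the highest cells; -1.40 without mesenchymal-marker cells). In SEC it fell 2.81-fold (log2 -1.49, -1.63 to -1.355; -1.54 without mesenchymal-marker cells). The direction was shared by both gates and all ranges, but few cells carried *Il34*: 8 of 84 young and 2 of 82 old AEC, and 12 of 70 young and 9 of 71 old SEC. In AEC of range 3, 1 cell held 94.3% of young and 1 cell 100% of old counts, and in range 2 a single cell held 98.0% of old counts.

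Of the 5 MSC-L markers, *Lepr*, *Adipoq* and *Hp* were also lower in the old endothelial gates, where *Il34* was lower. *Lepr* stood at 642 CPM in young and 267 in old SEC and at 75.8 and 31.97 CPM in AEC. *Adipoq* stood at 263 and 64.8 CPM in SEC and 16.95 and 0.688 CPM in AEC, and *Hp* at 793 and 248 CPM and 65.6 and 2.81 CPM. *Cxcl12* was lower in old SEC (5519 and 3570 CPM) but higher in old AEC (2343 and 2855 CPM). *Kitl* was higher in old SEC (119 and 169 CPM) and about level in AEC (501 and 493 CPM). The 5 markers summed to 7336 and 4320 CPM in SEC and 3002 and 3383 CPM in AEC. The SEC gate also held other clusters at each age, with SEC-like cells at 59 of 70 young and 44 of 71 old cells. E1 cells numbered 9 and 4, E6 cells 2 and 12, and AEC-like cells 0 and 8. The part of these differences in the *Il34* ratios was not tested.

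The other endothelial age differences rested on few cells. *Mdk* of AEC had a log2 ratio of 1.01 (0.49 to 1.56), but 93.5% of old counts came from 1 cell and the ratio was -1.87 without the highest cells. Without mesenchymal-marker cells *Mdk* gave -1.88, and within ranges -3.41, 2.58 and -1.20, the last a bound from 0 old counts. *Flt3l* of AEC rose from 4.33 to 9.49 CPM (log2 1.13, 0.85 to 1.42), with 0.66, 1.76 and -0.51 within ranges, 0.96 without the highest cells and 1.24 without mesenchymal-marker cells. *Csf3* of AEC stood at 0.07 (-0.01 to 0.16) with all cells and -1.47 without the highest cells. Its counts lay in different ranges at each age: 0, 2041 and 0 in young AEC and 2051, 97 and 2 in old AEC for ranges 1, 2 and 3. *Csf3* expression was therefore confined to a handful of AEC in either age. *Csf1* of AEC stood at 0.13 with all cells and at -2.09, 0.65 and 0.67 within ranges. In SEC *Csf1* stood at 0.22, or -0.16 without the cell with hematopoietic markers, *Il15* at -0.33 and *Flt3l* at -0.09. *Mdk* of SEC stood at -0.85 with all cells and -1.07 without the highest cells. *Il7* of SEC stood at -0.73 with all cells and -5.55 without mesenchymal-marker cells, or -1.54 without the highest cells.

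In old SEC the few cells with mesenchymal markers again held much of these transcripts. *Csf1* stood at 856 CPM in them and 111.5 CPM in the other old SEC, and *Il34* at 272 and 9.37 CPM. *Il7* stood at 87.4 and 0.208 CPM, and *Mdk* at 99.9 and 6.04 CPM. Old SEC thus hardly expressed *Il7* outside those 5 cells. Hematopoietic markers were not used in this split, and a single cell held 25.2% of all *Csf1* counts of old SEC.

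MSC-L cells carried several of the 10 genes at once. The median number per cell was 4 in both young and old MSC-L (from 2 to 7 and from 1 to 6). At least 3 of the 10 were carried by 50 of 53 young (94.3%) and 48 of 58 old (82.8%) MSC-L. In mOPr the median was 1 in young and 3 in old cells, with at least 3 in 5 of 26 and 14 of 26. No member was carried by 18 of 44 young OPr and 35 of 82 old AEC. *Csf1* and *Il34* were carried together by 45 of 53 young (84.9%) and 47 of 58 old (81.03%) MSC-L. In mOPr the pair was found in 0 of 26 young cells (3 of 26 would be 11.5%) and 10 of 26 old cells (38.5%), and in OPr in 2 of 44 and 9 of 29 (31.03%). *Csf1*, *Il34*, *Il7* and *Mdk* were all carried by 28 of 53 young (52.8%) and 30 of 58 old (51.7%) MSC-L. Nearly all MSC-L carried *Csf1* and most carried *Il34*, so joint carriers would be common without any link between the genes. Their r within MSC-L was 0.229.

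Over all 661 cells, *Il34*, *Mdk* and *Il7* were correlated, with r of 0.648 for *Il34* and *Mdk*, 0.624 for *Il7* and *Mdk* and 0.588 for *Il7* and *Il34*. Within the 111 MSC-L the same pairs were weaker, 0.336 for *Il34* and *Mdk*, 0.249 for *Il7* and *Mdk* and 0.0461 for *Il7* and *Il34*. The correlation of *Il7* with *Il34* was thus close to absent among MSC-L. Among 10149 candidate genes, those most correlated with *Il34* were *Adipoq* (0.758), *Kng1* (0.736) and *Slc26a7* (0.736). *Il7* had *Kng1* (0.715), *Esm1* (0.709) and *Adipoq* (0.703), and *Mdk* had *Mdk-ps1* (0.879), *Kng1* (0.749) and *Gdpd2* (0.737). *Kng1* was thus shared by *Il34*, *Il7* and *Mdk*, and the adipokine gene *Adipoq* by *Il34* and *Il7*. *Csf1* had *Cyp1b1* (0.645), *Serpine2* (0.599) and *C1ra* (0.594), and *Ptn* had the matrix genes *Aspn* (0.329) and *Col3a1* (0.306). *Il15* had no gene above 0.275 (*Wdr86*), and *Csf3* had *Nod2* (0.319) and *Gm16047* (0.271). These r span all populations, and values within single populations were not computed. Over mesenchymal and endothelial cells apart, *Il34* with *Adipoq* gave 0.758 and 0.602. *Csf1* with *Cyp1b1* gave 0.674 and 0.329, and *Il15* with *Wdr86* 0.423 and 0.0764.

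By cluster, *Csf1* was highest in M1 (1097 CPM) and M2 (779 CPM), then in E1 (645 CPM), where 13 of 14 cells carried mesenchymal markers, and in M7 (626 CPM). M3 of the OPr-like clusters held 7.91 CPM of *Csf1*. *Il15* was shared by M1 (67.5 CPM) and the endothelial clusters E6 (56.7), E5 (37.4) and E3 (35.4 CPM). *Ptn* was highest among clusters of more than 1 cell in M14 (307 CPM, 4 cells), M12 (114 CPM) and M5 (69.4 CPM). *Csf3* stood at 100.0 CPM in E4 and 27.5 CPM in E3, the AEC-like clusters, and at 103 CPM in cluster E6, there from 1 cell. Endothelial *Il15* and *Csf3* thus lay mainly outside E1.

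Receptors for these factors had no common source. *Il2rg*, the common γ chain, stood at 186 CPM in young and 188 CPM in old SEC and at 78.8 and 61.6 CPM in AEC. *Csf2rb*, the shared β chain, stood at 216 and 304 CPM in SEC and 102 and 156 CPM in AEC. In old OPr it stood at 365 CPM with all cells and 0.252 CPM without hematopoietic-marker cells. *Il15ra* of AEC fell from 73.3 to 14.9 CPM (log2 -2.30), and *Il15ra* of SEC rose from 26.5 to 64.9 CPM (1.29). AEC were pooled over ranges here, and in range 3 young AEC held 20.7 CPM of *Il15ra*. *Csf3r* was not read in young OPr and stood at 423 CPM in old OPr, and *Csf1r* stood at 0.886 and 22.2 CPM. Of 14 testable receptors, 8 were higher and 4 lower in old OPr, against 27.2% and 21.1% of all tested genes. Without hematopoietic-marker cells 2 were higher (*Sdc1*, *Csf2ra*) and 5 lower of 9, against 27.9% and 19.5%. Without those cells *Csf3r* had 1 count and *Csf1r* 2.90 CPM in old OPr. *Ptprz1*, a receptor of pleiotrophin and midkine, fell in mOPr from 279 to 53.9 CPM (log2 -2.37), as *Ptn* did. *Ptn* and *Ptprz1* were carried together by 2 of 26 young mOPr. *Lrp1*, also a midkine receptor, stood at 3094 CPM in young MSC-S and 1166 CPM in young MSC-L. The pleiotrophin receptor *Sdc3* stood at 475 CPM in young OPr, 220 CPM in young SEC and 45.8 CPM in young MSC-L.

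*Kitl* and *Cxcl12*, which are not among the 10 genes, rose in old mOPr with log2 5.42 and 5.07 and in old OPr with 1.54 and 2.12, the direction of *Csf1*, *Il34* and *Il7*. Both also served as MSC-L markers here, 81.3% of the *Cxcl12* counts of young mOPr lay in 1 cell, and the part of the MSC-L-like cells in these rises was not tested.

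The 10 genes lie on 7 chromosomes. *Csf1* (chr3:107741048-107760469) and *Il7* (chr3:7569994-7613760) are both on the minus strand of chromosome 3, and *Il34* (chr8:110741829-110805924) and *Il15* (chr8:82331632-82403222) on that of chromosome 8. Counting ignored strand. *Thpo* shares 239 exon bases with *Chrd*, *Il7* 105 with *Gm16685*, *Csf2* 96 with *Gm12223*, and *Il34* 22 with *Gm15894* and 75 with *Gm15895*, so reads of those stretches cannot be told apart. *Flt3l* shares 856 with *Gm45713*, which had no entry in the count table. The effect of these overlaps on the levels was not tested.

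RefSeq on GRCm38.p6 had promoter entries for 5 of the 10 genes: *Csf1*, *Ptn*, *Thpo*, *Flt3l* and *Csf2*. Those of *Csf1* and *Ptn* are shown, chosen because the genes had opposite MSC-L to MSC-S ratios. The *Csf1* promoter (chr3:107760470-107760719, minus strand) has 250 bases and 56.4% GC, and the *Ptn* promoter (chr6:36810221-36810429, minus strand) 209 bases and 49.8% GC. Both sequences are from RefSeq. Capitals mark matches to EBF (CCCNNGGGA), NF-κB (GGNNTTTCC) and GC box (GGGCGG) motifs on either strand.
Csf1 promoter: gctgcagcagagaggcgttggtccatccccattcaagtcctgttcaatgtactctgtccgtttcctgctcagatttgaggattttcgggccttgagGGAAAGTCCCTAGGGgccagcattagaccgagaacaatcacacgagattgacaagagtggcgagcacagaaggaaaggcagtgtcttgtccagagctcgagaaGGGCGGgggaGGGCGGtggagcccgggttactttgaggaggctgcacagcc
Ptn promoter: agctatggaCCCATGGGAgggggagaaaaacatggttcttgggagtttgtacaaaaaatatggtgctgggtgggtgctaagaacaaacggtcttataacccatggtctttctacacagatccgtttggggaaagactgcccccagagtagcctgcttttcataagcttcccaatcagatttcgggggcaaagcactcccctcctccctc

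In *Csf1* an EBF match on the reverse strand (bases 103 to 111) overlaps an NF-κB match (bases 97 to 105), and GC boxes lie at bases 200 to 205 and 210 to 215. *Ptn* has an EBF match at bases 10 to 18 and no NF-κB match or GC box. Of 32817 promoters, 5.60% had an EBF match, 4.93% an NF-κB match and 32.7% a GC box in 250 bases. In 209 bases the shares were 4.77%, 4.09% and 26.5%, so most promoters of that length lack an NF-κB match and a GC box, as *Ptn* does. Neither promoter matched the C/EBP, forkhead, AP-1, RUNX or TATA box motifs searched. Whether any of these sites is bound in these cells was not tested.

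Each group was treated as 1 sample, so differences between ages cannot be told apart from differences between mice, plates or sorts. For *Csf1*, *Il34* and *Il7* in OPr and mOPr, a change of cells in the gate and a change of expression could be separated only through clusters that used *Il7* and *Il34* as guide genes. *Csf3* and *Thpo*, and *Ptn* outside young MSC-S, were carried by so few cells that single cells weighed heavily in their levels. In young mOPr 1 cell held 42.8% of the *Ptn* counts. SEC were sequenced in 1 range, so their levels share any technical difference of that range. Transcript levels of *Csf1*, *Il34* and the other genes say nothing of secreted protein, which was not analysed here.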

How the data were processed

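The counts are those deposited by the authors, who aligned reads with GSNAP 2015-09-29 to GRCm38.p4 and counted them per gene with HTSeq (version not stated) without regard to strand. Entries with the same symbol were summed and mitochondrial genes were removed, and 45771 nuclear genes remained, of which the 10 were named by symbol. Counts of a group were summed and divided by its nuclear total. Exact Poisson limits were used for levels, exact binomial limits for ratios and shares. A gene with 0 counts in a group was given 3 counts there, and a share of 0 was limited by 3 of the cells. Alternatives were size factors, means of CPM, a pseudocount, no filter on counts, each library-number range, cluster identity in place of the gate, shares after thinning to 100000 counts per cell, and leaving out the highest cell, hematopoietic-marker cells or mesenchymal-marker cells. Leaving out mesenchymal-marker cells from age ratios, adding *Mdk-ps1*, leaving out the highest cell between populations, and counting members within ranges or without the highest cell were chosen after seeing the data. The members and gene lists were chosen with earlier results of these data known. The code was tested on simulated data. Figures were drawn with matplotlib 3.10.9 and values computed with scipy 1.17.1, pandas 2.3.3 and numpy 2.4.6, all under Python 3.11.15.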

Additional observations from a re-analysis of the deposited data

Results flagged for a closer look

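The old over young ratio of *Il34* had opposite signs in the endosteal OPr and mOPr gates and in the endothelial gates. The log2 ratio in OPr exceeded that in AEC by 2.83 and that in SEC by 2.78. In mOPr it exceeded that in AEC by 7.93 and that in SEC by 7.88. When OPr-like clusters replaced the OPr gate, the *Il34* ratio was -0.65. *Il34* was a guide gene of those clusters, so that value is description only. MSC-L-like cells held 456 CPM in young and 309 CPM in old mice, and *Il34* was carried by 8 of 84 young and 2 of 82 old AEC. These differences were not tested.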

How the results depend on the processing

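No paired analysis was possible because the labels name no mouse. For the age ratios of the members, 41 results had 306 alternative values, of which 267 kept the sign and 157 moved out of the counting interval without reversing a ratio past 2-fold. For ratios past 2-fold, 117 of 140 values stayed past it. Of ratios past 2-fold, 10 values changed sign, and the other sign changes were in ratios within 2-fold. The log2 ratios that reversed from past 2-fold were *Flt3l* in MSC-L in range 1 (-0.0866), *Il7* in MSC-S in range 1 (-6.92), and *Il7* (-4.54) and *Il34* (-0.65) of OPr when cells were grouped by cluster identity. *Il7* and *Il34* were guide genes of those clusters, so their values by cluster identity are description only. *Ptn* in mOPr reversed in range 1 (0.18), and *Flt3l* in AEC in range 3 (-0.51). *Mdk* in AEC reversed without the highest cells (-1.87), in range 1 (-3.41), in range 3 (-1.20, a bound from 0 old counts) and without mesenchymal-marker cells (-1.88). The number of members past 2-fold moved in MSC-L from 3 to 1 in range 1. In MSC-S it moved from 1 to 2 without a filter, without the highest cells, in range 1 and in range 2. In OPr it moved from 5 to 3 in range 1, and to 4 higher and 2 lower members without hematopoietic-marker cells. In AEC it moved from 3 to 1 with the mean of CPM and to 0 in range 3. In SEC it moved from 1 to 2 without a filter and to 3 without the highest cells. For SEC over AEC it moved from 4 to 1 without mesenchymal-marker cells. In each case the cause was not tested. MSC-L over MSC-S kept every sign over 28 values, of which 26 moved. Of 120 shares of carriers, 4 moved.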
